A study of Saccharomyces cerevisiae with 12 samples.

Results

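The phosphate regulon of Saccharomyces cerevisiae was followed here through 10 of its genes, PHO84, PHO89, SPL2, PHO5, VTC1, VTC3, VTC4, PHO81, PHO4 and PHM6, out of 5449 yeast genes measured. The genes were chosen by gene symbol, for known roles in phosphate transport, acid phosphatase activity, polyphosphate synthesis and PHO control, and with their measured levels at the 4 times already known. All 10 were measured, each by 1 probe set. Their own levels and differences are therefore a description, without a test. Tests of single genes are given only for other genes of the pathway, whose lists were also drawn up with earlier results of these data known. For the 10 genes, test calls are printed only as counts, from which nothing is read. The study profiled the laboratory strain CENPK 113-7D in batch culture on glucose in synthetic medium, with 3 Affymetrix arrays each from logarithmic growth (log phase) and from days 2, 6 and 10. No group carried a further genetic change or drug per the labels, and the log phase arrays served as the reference. The days are counted from stationary phase in the sample labels and from the start of cultivation in the series description. Whether the 3 arrays of one time stem from separate cultures is not labelled, so errors and p-values reflect only how these samples vary, possibly for technical reasons.

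Yeast cells take up inorganic phosphate through transporters of high and low affinity in the plasma membrane and store it in the vacuole as polyphosphate. When phosphate is plentiful, the cyclin and kinase pair Pho80 and Pho85 phosphorylates the transcription factor Pho4 and keeps it out of the nucleus. When phosphate runs short, the inhibitor Pho81 blocks that kinase, and nuclear Pho4 together with Pho2 switches on genes for transporters, secreted phosphatases and polyphosphate handling.

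The 10 genes did not move as one. In the values as deposited, the transporters PHO84 and PHO89 were 28.5-fold and 12-fold above log phase on day 10, SPL2, PHO81 and PHO4 were higher by at most 1.02, VTC3 and VTC4 stayed near their log phase level, VTC1 and PHM6 were lower, and PHO5 was not above background on any array. All levels are log2 values of a probe set as deposited, differences are given with the standard error (SE) of a linear model and n = 3 arrays per time, and levels of different probe sets cannot be set against each other. Background is the 95th percentile of probe sets made for another yeast species on the same arrays, which averaged 5.84 in log phase and between 5.79 and 5.81 on the later days.

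**Figure D1:**
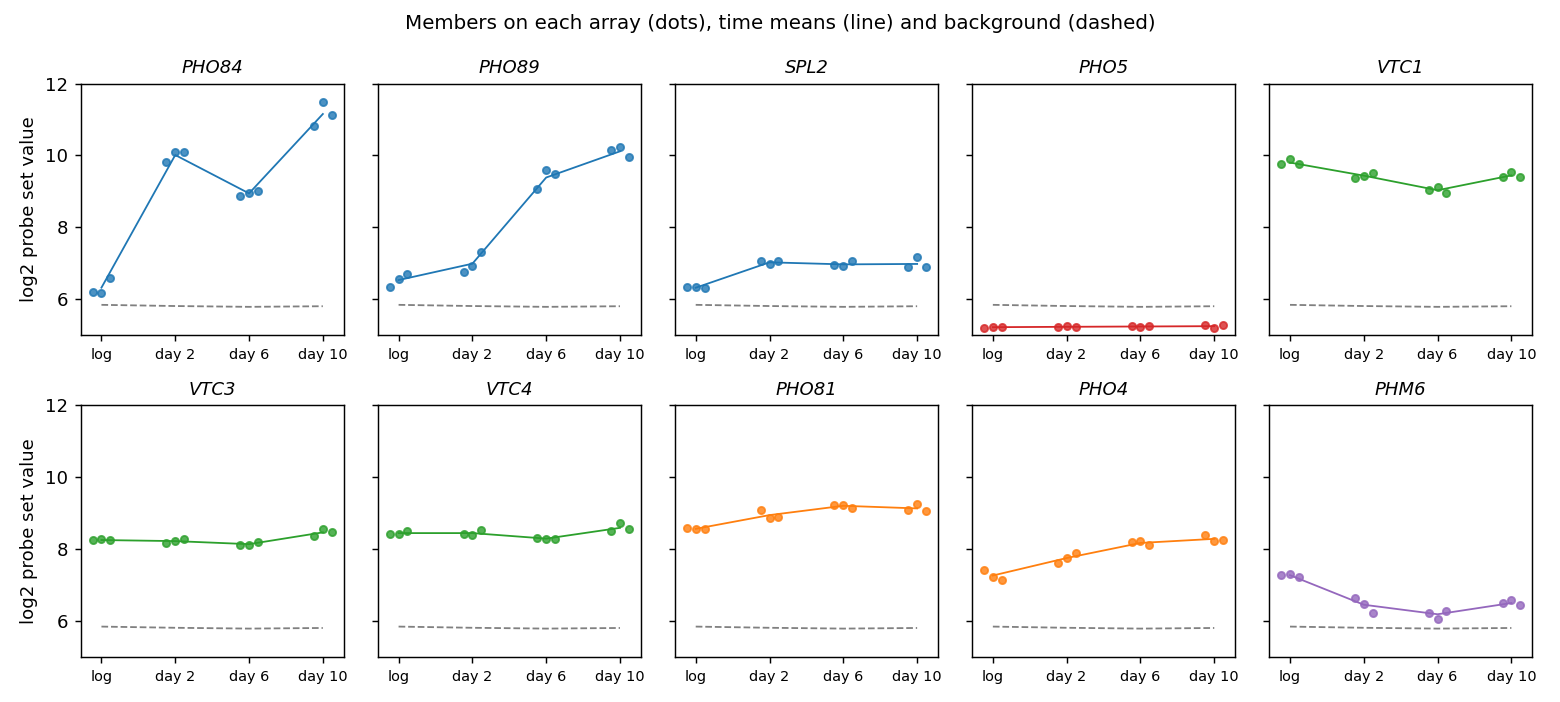
Log2 probe set value (vertical axis, from 5 to 12) of the 10 genes on each of the 12 arrays by time, with the mean of the 3 arrays as a line and the background as a dashed line. PHO84 reaches 11.49 and PHO89 10.25 on day 10, while PHO5 stays between 5.2 and 5.28, under the background.

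Markers of growth state followed the labels with 1 exception. The stationary phase genes SPG1, SPG4, SIP18, HSP26 and SSA3 were each higher on every later array than on any log phase array (SSA3 at most 7.34 against at least 8.37). The ribosomal protein genes RPL9A and RPS28B were lower on every later array (RPS28B at least 11.44 against at most 9.36), while RPL3 reached 11.52 in both. Every difference is relative to the other genes of the array: the median difference of all genes ran from -0.02 to 0.02 over the 6 comparisons. Centring on hybridisation controls, bacterial and phage RNAs, moved it to -0.44, -1.19 and -0.98 for days 2, 6 and 10 against log phase. Without the control bioB it moved to -0.07, -0.85 and -0.65. That control was low on the log phase arrays. There bioB minus bioC was -2.17 ± 0.08, against -0.79 ± 0.04, -0.88 ± 0.02 and -0.89 ± 0.01 on days 2, 6 and 10 (SD, n = 3). Whether the log phase arrays were handled apart from the later ones was not tested. In comparisons with log phase such a difference could not be told apart from time. Whether the shift of the median on these controls is technical or biological was not tested. Bulk samples such as these also cannot tell fewer transcripts per cell from fewer living cells. RNA integrity was gauged by 8 control genes, as their 3' end signal minus their 5' end signal. It was 1.25 ± 0.07 (SD, n = 3) for log phase, 0.86 ± 0.24 for day 2, 1.65 ± 0.05 for day 6 and 1.28 ± 0.07 for day 10. Its values on day 2 (0.69 to 1.13) and on day 6 (1.59 to 1.69) overlapped with those of no other time. The measure is thus largely confounded with time. A difference that shrank or lost its call with this covariate cannot be assigned to RNA integrity or to time. Its part in the results was not tested beyond the values given with it as a covariate.

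PHO84 encodes the high-affinity phosphate transporter that is coupled to protons. It stood at 6.20, 6.16 and 6.60 in log phase, at 9.83, 10.11 and 10.09 on day 2, at 8.86, 8.96 and 9.01 on day 6 and at 10.83, 11.49 and 11.14 on day 10. The course was a climb, a partial retreat and a second climb, and no arrays of different times overlapped. The difference from log phase was 3.69 ± 0.15 on day 2, a 12.9-fold level. It was 2.62 ± 0.15 on day 6 (6.16-fold) and 4.83 ± 0.15 on day 10 (28.5-fold). Its range over the 4 time means, 4.83, ranked 12 among the 5449 genes. From day 2 to day 6 the level was lower by 1.07 on the log2 scale (SE 0.15), and with the 3' minus 5' signal as a covariate this difference shrank to -0.47. From day 6 to day 10 it was 2.21 ± 0.15 higher. Centred on the hybridisation controls PHO84 still stood 3.27, 1.43 and 3.87 above log phase on days 2, 6 and 10, and leaving out any 1 array gave between 4.67 and 5.0 for day 10.

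PHO89 encodes the other high-affinity transporter, which takes up phosphate with sodium and is known for its use at alkaline pH. Its arrays read 6.34, 6.57 and 6.69 in log phase, 6.75, 6.92 and 7.30 on day 2, 9.08, 9.59 and 9.49 on day 6 and 10.14, 10.25 and 9.96 on day 10. Each time lay above the one before without overlap, but the main step came between day 2 and day 6, where PHO84 was lower. That step was 2.40 ± 0.15, a 5.28-fold level. The day 10 level was 3.58 ± 0.15 above log phase, 12-fold, and the range over the 4 times ranked 70 among the 5449 genes. The day 2 level exceeded log phase by 0.46 ± 0.15 and is less firm. It was 0.04 after centring on all the hybridisation controls, though 0.41 without bioB, and 0.05 when the covariate was fitted.

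SPL2 encodes a small protein that holds back low-affinity phosphate uptake when phosphate is short. It read 6.33, 6.33 and 6.30 in log phase and lay between 6.89 and 7.17 on the 9 later arrays, with days 2, 6 and 10 overlapping. The differences from log phase were 0.71 ± 0.07, 0.65 ± 0.07 and 0.66 ± 0.07 for days 2, 6 and 10. Centred on the hybridisation controls these became 0.29, -0.54 and -0.31, and -0.21 and 0.02 for days 6 and 10 without bioB, so the direction on days 6 and 10 depends on the scaling.

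**Figure D2:**
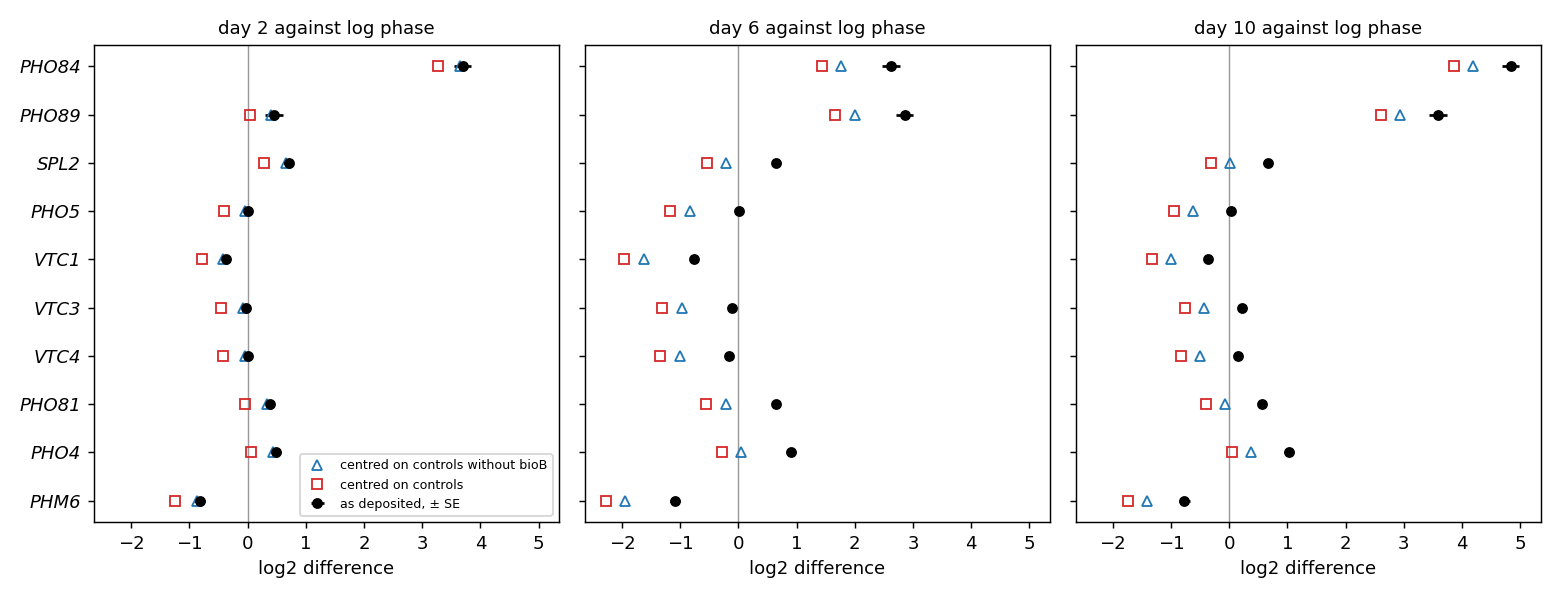
Log2 difference from log phase (horizontal axis) of each gene on days 2, 6 and 10, as deposited with its SE (filled circles) and with arrays centred on hybridisation controls (open squares) or on those without bioB (open triangles). PHO84 and PHO89 stay to the right of 0 under each scaling, and SPL2, PHO81 and PHO4 cross 0 on day 6 when centred on all the controls. Both centrings move every gene to the left, so VTC1 and PHM6, left of 0 as deposited, could not cross it.

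PHO5 encodes the main secreted acid phosphatase of phosphate-starved cells and is the classic reporter of the pathway. Its probe set lay between 5.20 and 5.28 on the 12 arrays, below the background at each time, and so no fold is given. Its range over the 4 time means, 0.03, ranked 5442 among the 5449 genes. Another 2 probe sets, of the other yeast species, carry the symbols pho4 and vtc4 in lower case and were not counted among the 10 genes. They read between 5.21 and 5.30. A level below background sets only an upper limit on this probe set's signal. The annotation names the gene from a reference strain, S288C, and whether the probes match the PHO5 copy of the strain studied was not tested.

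Further acid phosphatase genes measured were PHO3, DIA3 and PHO11. PHO3, the neighbour of PHO5 in the reference genome and a phosphatase gene controlled by thiamine, had a mean of 6.20 ± 0.01 (SD, n = 3) in log phase, then 7.12 ± 0.09, 6.32 ± 0.12 and 6.43 ± 0.20 on days 2, 6 and 10. It rose by 0.93 ± 0.09 on day 2 (limma adjusted p = 5.25e-07) and fell by 0.81 ± 0.09 to day 6 (adjusted p = 5.59e-06), a fall that was not called with the 3' minus 5' covariate (-0.45). DIA3, a relative of the acid phosphatases, had the same order of times as PHO3. It rose at least 2.00-fold on day 2 against a log phase mean below background (adjusted p = 2.96e-08). The probe set annotated as PHO11 has the suffix for probes that match several transcripts and may also read the near-identical PHO12. It was 6.82 ± 0.03 in log phase and 6.47 ± 0.05 on day 6, where it had fallen by 0.35 ± 0.06 (adjusted p = 3.77e-05).

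**Figure D3:**
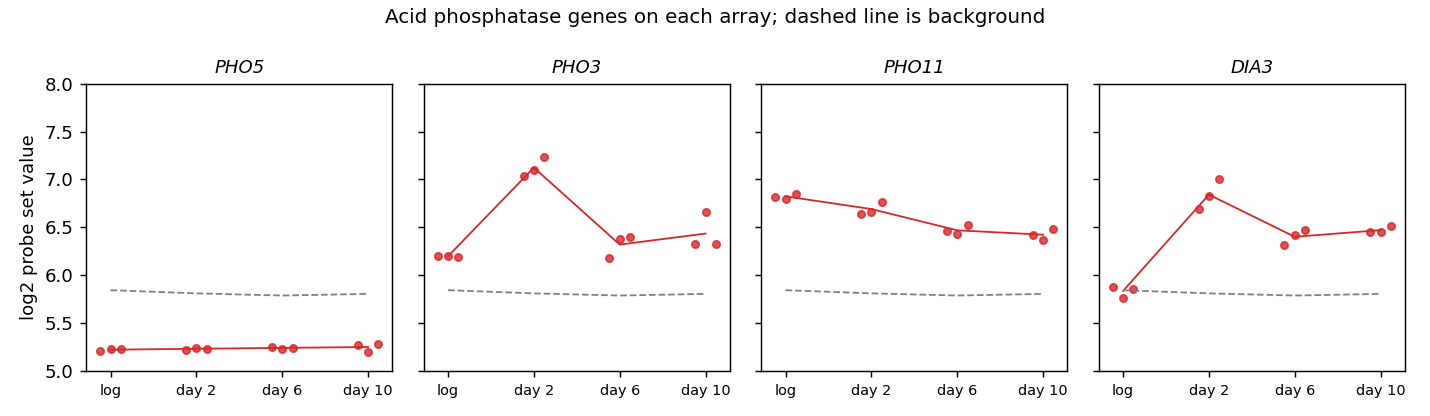
Log2 probe set value (vertical axis, from 5 to 8) of PHO5, PHO3, PHO11 and DIA3 on each array by time, with the mean as a line and the background as a dashed line. PHO3 and DIA3 are highest on day 2, at means of 7.12 and 6.84, PHO11 drifts from 6.82 to 6.42, and PHO5 stays under the background.

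VTC1, VTC3 and VTC4 encode subunits of the vacuolar transporter chaperone complex, which makes polyphosphate at the vacuole membrane, with Vtc4 as its polymerase. VTC1 read 9.75, 9.89 and 9.77 in log phase, 9.37, 9.44 and 9.51 on day 2, 9.03, 9.11 and 8.95 on day 6 and 9.40, 9.54 and 9.40 on day 10. It was lowest on day 6, at -0.77 ± 0.07 against log phase, and days 2 and 10 overlapped. VTC4 read 8.41, 8.42 and 8.51 in log phase, 8.42, 8.40 and 8.52 on day 2, 8.30, 8.28 and 8.29 on day 6 and 8.49, 8.73 and 8.55 on day 10. Its differences from log phase were 0.00 ± 0.07, -0.15 ± 0.07 and 0.15 ± 0.07. Its day 6 arrays lay below all the others.

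VTC3 read 8.24, 8.28 and 8.24 in log phase, 8.16, 8.23 and 8.28 on day 2, 8.11, 8.10 and 8.21 on day 6 and 8.37, 8.55 and 8.47 on day 10. Day 10 stood above the other times, and day 2 overlapped both log phase and day 6. Its differences from log phase were -0.03 ± 0.06, -0.12 ± 0.06 and 0.21 ± 0.06. As deposited, all 3 genes had their lowest mean on day 6, but with the covariate the difference of day 6 from day 2 was -0.10 for VTC1 (-0.41 as deposited), 0.14 for VTC3 and 0.00 for VTC4, so that day 6 no longer lay below day 2 for VTC3 and VTC4. From day 6 to day 10 all 3 were higher, with a step of 0.41 ± 0.07 for VTC1, 0.33 ± 0.06 for VTC3 and 0.30 ± 0.07 for VTC4 and no overlap between those arrays. This step kept its direction with the covariate (0.27, 0.22 and 0.23). Centred on the hybridisation controls it was 0.63, 0.55 and 0.52. That centring raises every gene from day 6 to day 10, so it could not reverse the step. Against log phase the same centring lowers every gene. The day 10 differences of VTC3 and VTC4 from log phase then turned to -0.76 and -0.82, and to -0.43 and -0.50 without bioB. The range of VTC3 and of VTC4 over the 4 times ranked 4757 and 4860 among the 5449 genes.

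PHO81 encodes the inhibitor of the Pho80-Pho85 kinase. It read 8.59, 8.55 and 8.56 in log phase, 9.09, 8.86 and 8.89 on day 2, 9.22, 9.24 and 9.15 on day 6 and 9.08, 9.25 and 9.07 on day 10. The later days lay above log phase without overlap, by 0.38 ± 0.07, 0.64 ± 0.07 and 0.57 ± 0.07. Centred on the hybridisation controls these became -0.04, -0.55 and -0.40, and without bioB they were 0.33, -0.21 and -0.07.

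PHO4 encodes the transcription factor of the pathway. It read 7.41, 7.23 and 7.15 in log phase, 7.60, 7.76 and 7.89 on day 2, 8.20, 8.22 and 8.10 on day 6 and 8.40, 8.22 and 8.24 on day 10. The differences from log phase were 0.49 ± 0.09, 0.91 ± 0.09 and 1.02 ± 0.09, the last a 2.03-fold level. Day 10 lay 0.11 ± 0.09 above day 6, and with the 3' minus 5' covariate that difference was -0.01. Centred on the hybridisation controls the differences from log phase were 0.07, -0.28 and 0.05, and without bioB they were 0.44, 0.05 and 0.38. Pho4 activity is known to be set mainly by phosphorylation and location, which these arrays do not measure.

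PHM6 encodes a small protein of unknown function that is known as a Pho4 target. It read 7.29, 7.32 and 7.21 in log phase, 6.64, 6.48 and 6.23 on day 2, 6.23, 6.05 and 6.27 on day 6 and 6.49, 6.57 and 6.44 on day 10. Log phase lay above all later arrays, and day 2 overlapped both day 6 and day 10. The differences from log phase were -0.82 ± 0.09, -1.09 ± 0.09 and -0.77 ± 0.09. Both centrings on controls lower every difference from log phase, so they could not reverse this direction and are no check of it.

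Counted with the model's threshold, an adjusted p under 0.05 over all genes, 5 of the 10 genes were higher and 2 lower on day 2 than in log phase, where 39.0% of all genes were higher and 41.5% lower. On day 6 the count was 5 and 3 (all genes 41.6% and 41.1%), and on day 10 it was 6 and 2 (39.5% and 39.8%). From day 2 to day 6 it was 3 and 3 (35.2% and 31.9%), from day 6 to day 10 it was 6 and 0 (28.8% and 32.1%), and from day 2 to day 10 it was 5 and 0 (34.9% and 32.1%). Since the genes were chosen with these comparisons known, nothing is read from the counts. The median difference of the 10 genes was 0.20, 0.33 and 0.39 for days 2, 6 and 10 against log phase, -0.07 from day 2 to day 6, 0.31 from day 6 to day 10 and 0.17 from day 2 to day 10. Centred on the hybridisation controls, the counts against log phase were 1 higher and 5 lower on day 2 (all genes then 16.6% and 55.7%), 2 and 7 on day 6 (6.53% and 83.6%), and 2 and 6 on day 10 (6.99% and 81.2%). Without bioB they were 4 and 2 (27.2% and 33.1%), 2 and 5 (9.95% and 73.3%), and 3 and 5 (10.8% and 67.4%). Against day 2, day 6 had 1 higher and 9 lower under both centrings, where all genes stood at 1.85% and 83.9%, or 1.65% and 85.2% without bioB. From day 2 to day 10 there were 2 higher and 6 lower under both (4.97% and 67.6%, or 4.40% and 70.4%), and from day 6 to day 10 there were 6 and 0 (29.3% and 6.29%, or 27.4% and 6.02%).

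A further 38 genes of phosphate metabolism were listed for their textbook roles, and 35 of them were measured. PHO12, VTC5 and PPN2 had no probe set of their own in the annotation used. Earlier results of these data were known when the lists were made, and the comparisons printed for single genes were picked after their values were seen. Their adjusted p-values are therefore not those of an independent choice. Of the 35, 19 rose and 10 fell on day 2 against log phase (median 0.25), beside 39.0% and 41.5% of all genes. On day 6, 17 rose and 8 fell (median 0.12), beside 41.6% and 41.1%, and on day 10, 17 rose and 9 fell (median 0.15), beside 39.5% and 39.8%. In all 13 of the 35 were higher on all 3 days and 5 were lower on all 3, where 28.1% of all genes were higher and 28.5% lower on all 3. VIP1 and SIW14, enzymes of inositol pyrophosphate turnover, were called on none, as were 3.96% of all genes. From day 2 to day 6, 7 rose and 13 fell (all genes 35.2% and 31.9%), from day 6 to day 10, 10 rose and 10 fell (28.8% and 32.1%), and from day 2 to day 10, 11 rose and 15 fell (34.9% and 32.1%). Whether these counts differ from those of all genes was not tested. With the hybridisation controls as the centre, 8 were higher and 15 lower on day 2 (all genes 16.6% and 55.7%), 4 and 27 on day 6 (6.53% and 83.6%) and 5 and 22 on day 10 (6.99% and 81.2%). Without bioB the counts were 13 and 5 (27.2% and 33.1%), 4 and 22 (9.95% and 73.3%), and 5 and 20 (10.8% and 67.4%). Among the later days 1 was then higher and 31 lower from day 2 to day 6 (1.85% and 83.9%), and 2 and 25 from day 2 to day 10 (4.97% and 67.6%), with the same counts without bioB (1.65% and 85.2%, then 4.40% and 70.4%). From day 6 to day 10 the counts were 9 and 1 (29.3% and 6.29%), or 9 and 0 without bioB (27.4% and 6.02%).

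**Figure D4:**
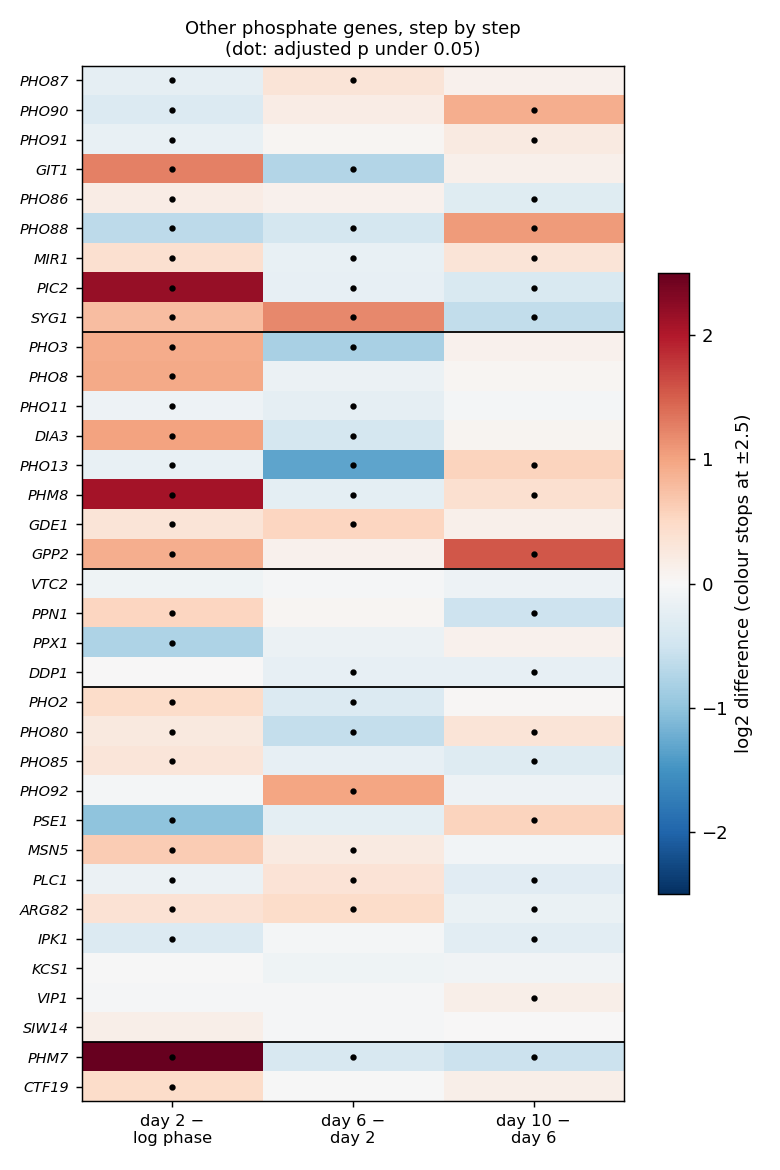
Log2 difference (colour, red higher and blue lower, stopping at ±2.5) of the 35 other phosphate genes for day 2 minus log phase, day 6 minus day 2 and day 10 minus day 6, with a dot where the adjusted p was under 0.05. Lines separate transport, phosphatases, polyphosphate enzymes, signalling and the Pho4-induced genes PHM7 and CTF19, and the darkest cell is PHM7 on day 2, at 3.66.

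Of 9 other transport genes 5 rose and 4 fell on day 2, beside the 39.0% and 41.5% of all genes. PIC2, a mitochondrial carrier of copper and phosphate, rose by 2.17 ± 0.09 (adjusted p = 7.63e-11), a 4.51-fold level. MIR1, the main mitochondrial phosphate carrier, rose by 0.41 ± 0.06 (adjusted p = 1.81e-05). It stood at -0.01 centred on all the hybridisation controls, and at 0.36, not called, without bioB. GIT1, which imports glycerophosphoinositol, rose by 1.26 ± 0.12 on day 2 (adjusted p = 5.43e-07) and fell by 0.73 ± 0.12 to day 6 (adjusted p = 0.000182), a fall that was not called with the 3' minus 5' covariate. Its means over the 4 times were 5.97, 7.23, 6.50 and 6.62.

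PHO90, a low-affinity transporter of the plasma membrane, was at 8.43 ± 0.05, 8.10 ± 0.40, 8.28 ± 0.07 and 9.19 ± 0.11 over the 4 times (SD, n = 3). It rose by 0.92 ± 0.14 from day 6 to day 10 (adjusted p = 0.000103) and stood 0.76 ± 0.14 above log phase on day 10 (adjusted p = 0.000236), or -0.20 centred on the hybridisation controls. PHO87, the related low-affinity transporter, rose by 0.33 ± 0.07 from day 2 to day 6 (adjusted p = 0.000578), which turned to -0.44 centred on those controls and to -0.06 with the 3' minus 5' covariate. SYG1, a membrane protein with an SPX domain like Pho81, was at 11.19 ± 0.04 on day 6, 1.97 ± 0.08 above log phase (adjusted p = 7.99e-11), and fell by 0.62 ± 0.08 to day 10 (adjusted p = 2.67e-05), a fall not called when centred on the controls without bioB (-0.41). PHO88, an endoplasmic reticulum protein now also named SND3, went the other way. It fell by 1.09 ± 0.11 to day 6 against log phase (adjusted p = 6.39e-07) and rose by 1.07 ± 0.11 to day 10 (adjusted p = 3.43e-06).

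Of 8 phosphatase genes outside the 10, including the 3 acid phosphatases above, 6 rose and 2 fell on day 2 (all genes 39.0% and 41.5%). PHM8, a nucleotide and lysophosphatidate phosphatase, rose by 2.08 ± 0.08 on day 2 (adjusted p = 9.01e-11) and was 2.23 ± 0.08 above log phase on day 10 (adjusted p = 6.16e-11). PHO8, the vacuolar alkaline phosphatase, rose by 0.94 ± 0.10 on day 2 (adjusted p = 1.52e-06). GPP2, a phosphatase of glycerol phosphate, was at 10.36 ± 0.26 on day 10, having risen by 1.55 ± 0.12 since day 6 (adjusted p = 4.30e-07), and was then 5.93-fold over log phase. GDE1, a glycerophosphodiesterase, was 0.98 ± 0.08 above log phase on day 10 (adjusted p = 1.23e-07), or 0.02 and not called centred on the hybridisation controls. PHO13, a phosphatase of side products of metabolism, fell by 1.5 ± 0.07 to day 6 against log phase (adjusted p = 2.43e-10) and rose by 0.56 ± 0.07 to day 10 (adjusted p = 1.77e-05).

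Of 4 other polyphosphate genes 1 rose and 1 fell on day 2 (all genes 39.0% and 41.5%). PPN1, the vacuolar endopolyphosphatase, rose by 0.53 ± 0.06 (adjusted p = 1.12e-06) and fell by 0.52 ± 0.06 from day 6 to day 10 (adjusted p = 5.14e-06). Both calls were lost centred on all the hybridisation controls, while the day 2 call was kept without bioB (0.48). PPX1, the exopolyphosphatase, fell by 0.78 ± 0.08 on day 2 (adjusted p = 4.95e-07). On day 10 VTC2, a further subunit of the synthesis complex, was lower than in log phase by 0.27 ± 0.07 (adjusted p = 0.00237), and DDP1, a polyphosphate hydrolase, by 0.39 ± 0.07 (adjusted p = 0.000232). The step from day 6 to day 10 that VTC1, VTC3 and VTC4 shared was not called for VTC2, at -0.13 ± 0.07 (adjusted p = 0.114).

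Of 12 genes of PHO signalling and control 5 rose and 3 fell on day 2 (all genes 39.0% and 41.5%). PHO2, the partner factor of Pho4, rose by 0.47 ± 0.07 on day 2 (adjusted p = 1.98e-05) and fell by 0.35 ± 0.07 to day 6 (adjusted p = 0.000456). PHO80, the cyclin, fell by 0.60 ± 0.07 from day 2 to day 6 (adjusted p = 9.77e-06) and rose by 0.33 ± 0.07 to day 10 (adjusted p = 0.00167). PHO85, its kinase, was lower on day 10 than on day 2 by 0.54 ± 0.09 (adjusted p = 0.000122). The call of PHO2 on day 2 was lost centred on all the hybridisation controls, though its difference was 0.42 without bioB. The later calls of PHO2, PHO80 and PHO85 were lost with the 3' minus 5' covariate.

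PHO92, whose protein binds methylated mRNA and is known to promote decay of the PHO4 message, rose by 0.99 ± 0.07 from day 2 to day 6 (adjusted p = 1.19e-07), or 0.22 and not called centred on the hybridisation controls. PSE1, the importin that carries Pho4 into the nucleus, fell by 1.0 ± 0.12 on day 2 (adjusted p = 3.66e-06). MSN5, the exportin of phosphorylated Pho4, was 0.86 ± 0.08 above log phase on day 6 (adjusted p = 1.60e-07), or -0.33 centred on those controls and 0.003 without bioB. ARG82 of inositol phosphate synthesis was 0.81 ± 0.06 above log phase on day 6 (adjusted p = 4.08e-08), or -0.38 so centred, and IPK1 of the same pathway was below it on day 10, at -0.65 ± 0.10 (adjusted p = 4.30e-05).

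PHM7, a membrane protein gene named for its response to phosphate, was at 6.47 ± 0.11 in log phase and 10.12 ± 0.06 on day 2 (SD, n = 3). It rose by 3.66 ± 0.09 (adjusted p = 1.31e-12), 12.6-fold, beside 12.9-fold for PHO84. By day 10 it had fallen by 0.93 ± 0.09 from day 2 (adjusted p = 9.40e-07), in which interval PHO84 was 1.14 ± 0.15 higher. CTF19, a kinetochore gene that neighbours VTC3 in the reference genome and is known to respond to phosphate, was below background in log phase (5.42). It was at 5.87 on day 2, at least 1.02-fold higher (adjusted p = 1.06e-05). This call was lost centred on all the hybridisation controls and kept without bioB.

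The likeness of profiles is given as Pearson's r over the 12 arrays, as a description, since these points share 4 times and r follows mainly the 4 means. VTC3 was the nearest of 5448 genes to VTC4 (r = 0.90). For PHO84 the nearest of the other members was SPL2, at rank 227 (r = 0.88), and PHO89 came at rank 1152 (r = 0.66). For PHO89 the nearest member was PHO4, at rank 140 (r = 0.91). PHM6 ran against PHO4 (r = -0.84), at rank 4922 of 5448. It also ran against SPL2 (r = -0.86) and PHO81 (r = -0.86), and with VTC1 (r = 0.86).

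Outside the 10 genes, the profiles nearest to PHO84 were those of ASH1, a repressor of mating type switching (r = 0.99), CPA1 of arginine synthesis (r = 0.99), PRM5 (r = 0.98), the cell surface protease gene YPS1 (r = 0.98) and the transcription factor gene SMP1 (r = 0.98). ASH1 had means of 8.14, 9.07, 8.85 and 9.29, the same order of times as PHO84. Nearest to PHO89 were the glucanase gene EXG1 (r = 0.99), YPL088W (r = 0.99), the amino acid permease gene BAP2 (r = 0.99), the nitrogen regulator gene URE2 (r = 0.99) and FLC2 (r = 0.98). Nearest to PHO4 were the DNA-binding factor gene CBF1 (r = 0.99), PEX28 (r = 0.99), PTR3 (r = 0.99), ECM10 (r = 0.98) and SSO1 (r = 0.98). Nearest to VTC4, with lower values, were SKN7 (r = 0.89), PIR1 (r = 0.88), ALR1 (r = 0.87), FSH1 (r = 0.87) and SHM2 (r = 0.86).

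**Figure D5:**
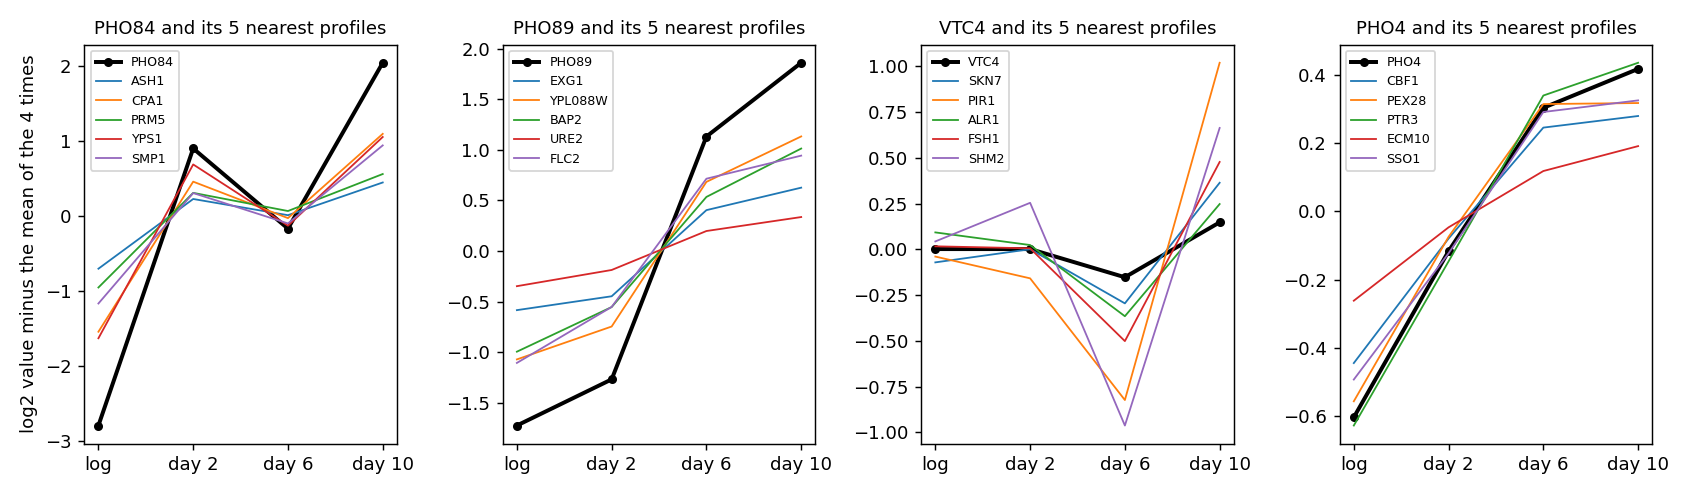
Mean log2 value at each time minus the mean of the 4 times (vertical axis, scaled per panel) for PHO84, PHO89, VTC4 and PHO4 (black) and the 5 genes nearest to each by Pearson's r over 12 arrays (colours). PHO84 dips on day 6 between the higher days 2 and 10, and VTC4 is lowest on day 6. The means of PHO89 and PHO4 climb throughout, though PHO4 by 0.11 ± 0.09 (SE) from day 6 to day 10.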

How the data were processed

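Total RNA was labelled with biotin for Affymetrix arrays, per the labels' protocols. The submitters' processing notes name PLIER. The authors deposited 1 value per probe set and array, taken to be log2 from its range (5.11 to 13.79); how background was corrected and arrays were normalized is not given in the sources used here. Of 10928 probe sets, 5498 had 1 S. cerevisiae gene in the platform annotation, with symbols updated through a RefSeq table of S288C (R64), for 5449 genes, and for 47 genes the probe set with the highest mean was kept. The 1746 probe sets of another yeast species gave the background. A fold against a mean below it is a lower bound.

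limma 3.58.1 in R 4.3.3 fitted 1 coefficient per time to all 12 arrays (8 residual degrees of freedom), with Benjamini-Hochberg adjustment over all genes in each of 6 comparisons and a threshold of 0.05. The fit was run on simulated data in which 200 genes were raised on day 2 alone. That setting is unlike these data, where most genes were called, so it checks the code and not the calls. The members and the lists were chosen with earlier results of these data known. Named were all members, listed pathway genes (the comparisons printed for these were picked after their values were seen), and the 5 genes nearest to PHO84, PHO89, VTC4 and PHO4. The alternatives were quantile normalization, median centring, centring on 27 hybridisation controls or the 18 without bioB, an offset of 16, a filter on dim genes, the mean of probe sets, a trended robust prior, the 6 arrays of each comparison, a replicate block, a 3' minus 5' covariate and each array left out. The number of arrays limits the precision. Promoter and protein sequences were not analysed here.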

Additional observations from a re-analysis of the deposited data

How the results depend on the processing

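Centring on the hybridisation controls shifts all genes of an array together, by construction. The median difference of the 10 genes then became -0.225, -0.859 and -0.578 for days 2, 6 and 10 against log phase, -0.840 from day 2 to day 6, 0.527 from day 6 to day 10 and -0.382 from day 2 to day 10. Without bioB it was -0.526 and -0.252 for days 6 and 10 against log phase, and -0.879, 0.519 and -0.429 among the later days. On the same pair of centrings, single differences from log phase turned to -0.04 for PHO81 and -0.01 for MIR1 on day 2, on all controls alone. On day 6 they turned to -0.54 and -0.21 for SPL2, -0.55 and -0.21 for PHO81, and -0.38 and -0.04 for ARG82, and on all controls alone to -0.28 for PHO4 and -0.33 for MSN5. On day 10 they turned to -0.76 and -0.43 for VTC3, -0.82 and -0.50 for VTC4 and -0.40 and -0.07 for PHO81, and on all controls alone to -0.31 for SPL2 and -0.20 for PHO90. The day 10 values of PHO5, -0.94 and -0.62, only carry the shift of the arrays, since its signal was below background throughout. From day 2 to day 6 they turned to -0.51 and -0.55 for PHO81, -0.35 and -0.39 for PHO4 and -0.44 and -0.48 for PHO87. From day 2 to day 10 they turned to -0.31 and -0.35 for VTC3, -0.40 and -0.45 for VTC4, -0.36 and -0.41 for PHO81 and -0.01 and -0.06 for PHO4. VTC2 from day 6 to day 10 turned to 0.09 under both. Of the other 35 phosphate genes, 32 were called from day 2 to day 6 under both centrings (20 as deposited), 10 and 9 from day 6 to day 10 (20), and 18 on day 2 without bioB (29). Of all genes 1938 and 1821 were called from day 6 to day 10 (3319).

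With the 3' minus 5' covariate the median of the 10 genes was 0.026 and 0.261 for days 2 and 6 against log phase, -0.012 from day 2 to day 6 and 0.227 from day 6 to day 10. The calls among the other phosphate genes were 18 on day 2, 9 from day 2 to day 6 and 14 from day 2 to day 10 (29, 20 and 26 without it), and among all genes 1636 from day 2 to day 6 (3659) and 2425 from day 2 to day 10 (3654). Differences turned to 0.14 for VTC3, -0.02 for PHO81 and -0.06 for PHO87 from day 2 to day 6, and to -0.01 for PHO4 from day 6 to day 10. Why the covariate moved these was not tested, and the covariate itself is largely confounded with time.

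A filter on dim genes removed PHO5, and the median of the 9 genes left was 0.382, 0.641 and 0.568 for days 2, 6 and 10 against log phase. Quantile normalization gave 0.231 for day 6, and median centring gave 0.333 for day 10 and -0.03 for PHO5 there. Leaving out 1 array gave a median of 0.103 to 0.204 from day 2 to day 10, the lowest without day 10 array 2.

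Correlations of deviations ran from -0.29 to 0.39 (median 0.01) for same-numbered arrays and from -0.36 to 0.36 (median -0.02) for differently numbered ones. Of 12 arrays, 6 correlated best with their own number. Whether that is more than unrelated numbers would give was not tested. With the replicate number as a block, 28, 25 and 26 of the other phosphate genes were called against log phase on days 2, 6 and 10, and 20, 19 and 24 from day 2 to 6, 6 to 10 and 2 to 10. The number of arrays and a signal near background, as for PHO5 and CTF19, limit what can be seen.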
